A study of Mus musculus with 4 samples.

Results

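RLTR10 elements are long terminal repeat (LTR) retrotransposons of the mouse genome, and their reads were compared between wild-type (WT) cells and cells without Lsh, a SNF2-family chromatin remodelling helicase encoded by Hells. The members were taken by name: every locus whose RepeatMasker name begins with RLTR10 in the LTR tables of the 4 libraries, and the intervals up- and downstream of such loci. This gave 878 of the 6216 LTR loci listed in any library. By name they were 329 RLTR10 loci with no letter (called plain RLTR10 below), 192 RLTR10C, 128 RLTR10A, 114 RLTR10D, 50 RLTR10B2, 38 RLTR10E and 27 RLTR10B. The name itself uses no reads, but the family was chosen by the counts of these same libraries, in which its subfamilies were seen to differ, so the differences between subfamilies are described and not tested.

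Strand-specific RNA-seq had been done on 1 library each of WT fibroblasts, Lsh-/- fibroblasts, WT embryos at day E13.5 and Lsh-/- embryos at day E13.5, all labelled C57BL/6J. The fibroblasts were adult tail-tip lines transformed with SV40, and the embryo libraries were made from staged embryonic tissue. The labels call the embryo control WT, while the study's methods speak of tissue from heterozygous and homozygous Lsh embryos. A transformed line stands for 1 culture, the embryo libraries mix many cell types, and fewer cells of a type cannot be told apart from less RNA per cell in them. With 1 library per group there was no replicate, so no p-value was computed. Every interval given here covers counting error only and says nothing of the spread between animals or cultures.

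An LTR retrotransposon is copied from an RNA that starts in its 5′ terminal repeat, runs through an internal region and ends in the 3′ terminal repeat. The terminal repeats are made as identical copies when an element inserts, and they drift apart as the insertion ages. Reverse transcription is primed by a cellular tRNA that pairs with the primer binding site, directly after the 5′ terminal repeat. RLTR10 elements belong to the ERVK class, which also holds the intracisternal A-particle (IAP) elements, and elements of this class are held silent in somatic tissue by DNA methylation and repressive chromatin.

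The start of the 5′ terminal repeat is shown for 1 locus of each of the 4 larger subfamilies, the raised one with the most reads among the named loci with both terminal repeats found, since this part holds the promoter. All sequences are from mm9, written 5′ to 3′ on the strand of the element, with CpG dinucleotides in capitals. The RLTR10D repeat is bases 1 to 240 of the element at chr9:12097493-12097732 (+), the RLTR10A repeat is the 235-base match at chrX:8909661-8909895 (-), the RLTR10C repeat is at chr3:96124260-96124499 (-) and the plain RLTR10 repeat is at chr5:105238673-105238912 (+). The bases shown hold 8, 5, 2 and 8 CpG, in that order. Only the RLTR10A repeat is shown whole. The whole 5′ terminal repeats of these loci, of 354, 235, 435 and 428 bases, hold 14, 5, 9 and 15 CpG.
RLTR10D: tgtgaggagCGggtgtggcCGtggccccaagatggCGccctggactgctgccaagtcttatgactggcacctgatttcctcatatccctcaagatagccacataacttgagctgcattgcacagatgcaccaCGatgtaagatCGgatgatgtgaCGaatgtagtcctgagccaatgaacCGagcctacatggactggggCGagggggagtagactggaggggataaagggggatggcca
RLTR10A: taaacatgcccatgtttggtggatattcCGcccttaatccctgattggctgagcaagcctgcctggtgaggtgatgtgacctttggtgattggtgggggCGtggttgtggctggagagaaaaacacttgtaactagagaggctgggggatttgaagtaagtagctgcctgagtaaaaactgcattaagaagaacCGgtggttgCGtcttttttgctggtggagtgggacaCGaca
RLTR10C: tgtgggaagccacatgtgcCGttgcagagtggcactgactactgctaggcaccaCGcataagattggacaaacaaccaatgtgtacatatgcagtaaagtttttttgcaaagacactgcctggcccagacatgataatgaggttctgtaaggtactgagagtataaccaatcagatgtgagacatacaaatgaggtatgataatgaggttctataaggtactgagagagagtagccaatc
plain RLTR10: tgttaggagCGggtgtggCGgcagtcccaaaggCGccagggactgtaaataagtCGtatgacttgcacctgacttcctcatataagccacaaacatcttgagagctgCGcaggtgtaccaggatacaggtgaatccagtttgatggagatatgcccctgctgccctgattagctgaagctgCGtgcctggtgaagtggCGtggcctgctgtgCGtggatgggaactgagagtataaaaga

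The first dinucleotide was TG, the usual start of a retroviral terminal repeat, in 98.9% of the RLTR10D loci with both terminal repeats found, 97.1% of RLTR10C and 98.1% of plain RLTR10. It was TG in 41.7% of RLTR10A loci, and the one shown starts with TA. When each 5′ terminal repeat was aligned to all the others, the best match outside the locus carried the same name for all 91 RLTR10D, 140 RLTR10C, 264 plain RLTR10, 31 RLTR10B2 and 37 RLTR10E loci compared, and for 102 of 103 RLTR10A loci. RLTR10B was the weakest (5 of 8 loci). RepeatMasker names are themselves given by sequence, so this describes the names and is no independent test of them.

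The boundary between the 5′ terminal repeat and the internal region is shown for the same 4 elements because it carries the primer binding site. The last 20 bases of the matched terminal repeat are in lower case and the 24 bases after the match in capitals. In the plain RLTR10 element the first TGG of the capitals lies further in than in the others. This locus is therefore not among those counted below as having a TGG. The coordinates are chr9:12097827-12097870 (+) for RLTR10D, chrX:8909637-8909680 (-) for RLTR10A, chr3:96124041-96124084 (-) for RLTR10C and chr5:105239081-105239124 (+) for plain RLTR10.
RLTR10D: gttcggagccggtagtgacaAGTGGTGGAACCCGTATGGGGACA
RLTR10A: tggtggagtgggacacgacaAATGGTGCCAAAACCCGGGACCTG
RLTR10C: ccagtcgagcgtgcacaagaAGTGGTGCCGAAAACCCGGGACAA
plain RLTR10: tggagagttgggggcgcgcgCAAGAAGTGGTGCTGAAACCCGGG

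A TGG followed closely after the 5′ terminal repeat in 78.0% of RLTR10D, 73.8% of RLTR10A, 90.7% of RLTR10C and 69.7% of plain RLTR10 loci with both repeats found. In plain RLTR10 and RLTR10C 1 form of the 18 bases from this TGG held about as many loci as all others together, 50.5% and 51.2% of the loci with a site. In RLTR10A and RLTR10D the most common form held 7.89% and 7.04%. The commonest forms are given beside that of IAPLTR1_Mm, an IAP terminal repeat, in which 77.1% of 664 loci shared 1 form.
IAPLTR1_Mm: TGGTGCCGAATTCCGGGA
plain RLTR10: TGGTGCCGAAACCCGGGA
RLTR10C: TGGTGCCGAAAACCCGGG

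The subfamilies differed in how alike an element's own terminal repeats were. The median identity was 99.53% in the 264 plain RLTR10 loci and 99.04% in the 140 RLTR10C loci with both repeats found, against 93.86% in 103 RLTR10A loci, 92.28% in 37 RLTR10E loci and 91.17% in 91 RLTR10D loci. The middle 50% of the loci ran from 89.29% to 92.65% in RLTR10D and from 97.07% to 99.77% in RLTR10C, so the middles of these groups did not overlap. Plain RLTR10 reached lower, from 96.3% at the first quartile. IAP loci had a median of 99.72%.

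The authors kept only reads with a single place in the genome, and the part of an element that such a read can reach differed as widely. Of the 50-base windows of a locus, the median share found once in mm9 was 71.3% for RLTR10D, 66.4% for RLTR10E, 61.6% for RLTR10A, 51.0% for RLTR10B2, 28.8% for RLTR10B, 18.7% for RLTR10C, 8.87% for plain RLTR10 and 4.28% for IAP. A count at a plain RLTR10, RLTR10C or IAP locus therefore comes from a small part of the element. Counts per locus are comparable between genotypes at 1 locus, and between names only after division by the unique length. CpG density of the terminal repeats varied less, with medians of 2.94 CpG per 100 bases in plain RLTR10, 2.54 in RLTR10C, 2.50 in RLTR10D and 2.12 in RLTR10A, all below the 5.41 of IAP.

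**Figure D1:**
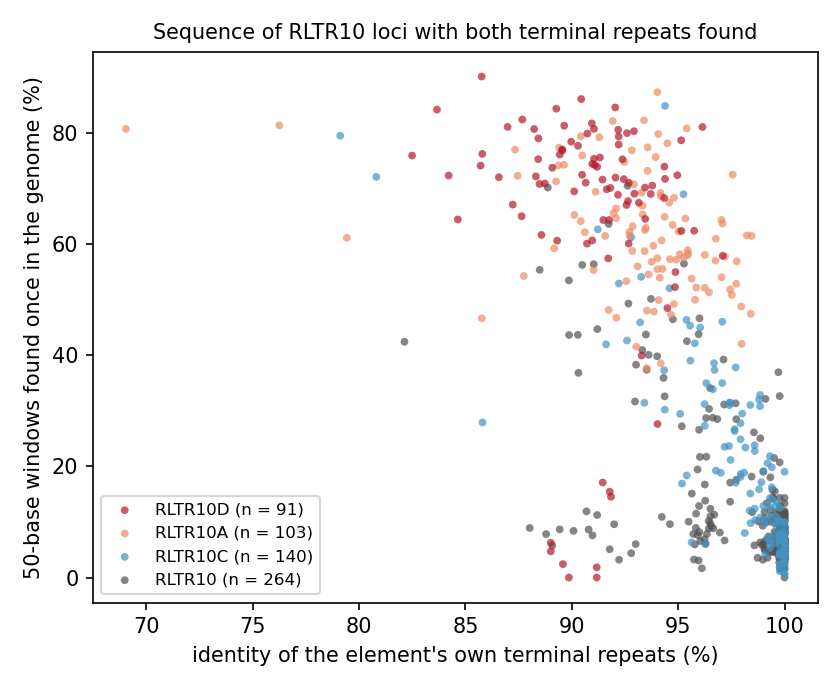
Each point is 1 locus with both terminal repeats found: the x axis is the identity of its own 5′ and 3′ terminal repeats (%), the y axis the share of its 50-base windows found once in mm9 (%), and the colour the repeat name. RLTR10D and RLTR10A lie mostly in the upper middle (medians of 71.3% and 61.6% unique windows), and RLTR10C and plain RLTR10 crowd at the lower right (18.7% and 8.87%).

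The libraries held 29787223 (WT fibroblasts), 19216257 (Lsh-/- fibroblasts), 33904311 (WT embryos) and 32784804 (Lsh-/- embryos) counts over their 6 tables, of which 75307 to 194084 lay in LTR loci. The genotype labels were checked at Hells: the 2 flanking intervals that overlap only its exons 11 to 12 held 937 reads in WT and 0 in Lsh-/- fibroblasts, and 427 and 0 in embryos. The 10 intervals over exons before 11 or after 13 held 5784 and 6132, and 2187 and 2014. An interval that touched exon 13, or exons 11 to 12 together with another exon, was put in neither set. For this check an interval was given a fixed width, 10 kb from its LINE locus, whatever the width or strand of that locus. Tissue identity was not checked with marker genes. Counts were scaled by the intervals that flank LINE-1 loci, and a locus with at least 10 reads in a pair of libraries was called raised when the 95% interval of its Lsh-/- over WT ratio lay wholly above 2-fold, and lowered when wholly below the inverse of that.

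In fibroblasts, RLTR10 loci held 2937 reads in WT and 13159 in Lsh-/- cells, a scaled ratio of 4.34 (95% counting interval 4.17 to 4.52). Of 161 loci with at least 10 reads, 76 were raised (47.2%), 85 were neither and 0 were lowered. Over all LTR loci 70.0% were raised and 1.09% lowered, so the share of the family was below that of the table, most of which is IAP (1201 of 1316 raised). Among ERVK loci that are neither IAP nor RLTR10, 115 of 398 were raised (28.9%). The WT library held no read at 47 of the 161 loci, and these passed the minimum only through Lsh-/- reads. The other 717 members had fewer than 10 reads, 968 in all in Lsh-/- and 326 in WT cells. Of these, 353 had more reads in Lsh-/- and 109 in WT cells. The fibroblast values hang on the library sizes: scaling by the total of all 6 tables multiplies every fibroblast ratio by 1.60 (87 loci raised), and scaling by the LTR table total by 0.401 (46 raised and 9 lowered).

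In E13.5 embryos the family held 6809 reads in WT and 13566 in Lsh-/- tissue, a scaled ratio of 2.07 (2.01 to 2.13). Of 181 loci with at least 10 reads, 64 were raised (35.4%) and 6 lowered (3.31%), beside 36% raised and 2.79% lowered over all LTR loci. The count of the family in embryos was thus at the level of the table. IAP loci were raised at 494 of 725 and other ERVK loci at 54 of 563 (9.59%).

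The subfamilies split into 2 kinds in both tissues. RLTR10D and RLTR10A were raised at 53.2% to 71.7% of their measured loci, and RLTR10C and plain RLTR10 at 5.41% to 25.9%. These shares include loci without a WT read, which passed the minimum only through Lsh-/- reads. Among loci that also had a WT read, 11 of 24 RLTR10D, 10 of 23 RLTR10A, 5 of 32 RLTR10C and 1 of 21 plain RLTR10 loci were raised in fibroblasts, beside 37% of such LTR loci in all. In embryos these were 11 of 33, 9 of 26, 0 of 35 and 0 of 28, beside 16.1%. RLTR10E was raised at 4 of 9 loci in fibroblasts and 0 of 8 in embryos. The pairs also differ in terminal repeat identity and unique share, as given above, and the part of either in the calls was not tested.

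**Figure D2:**
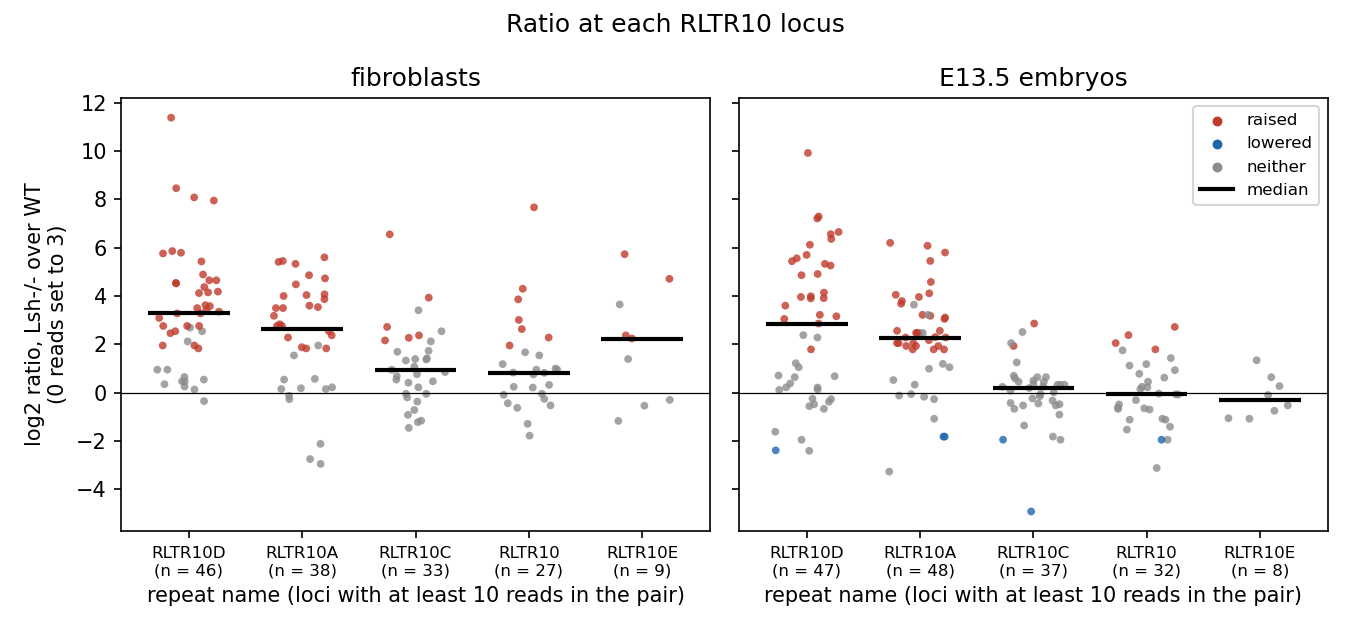
Each point is 1 locus with at least 10 reads in the pair: the y axis is the log2 ratio of Lsh-/- over WT reads after scaling, with 0 reads set to the floor of 3, and the x axis the repeat name, with fibroblasts on the left and E13.5 embryos on the right. Black bars are medians, at 3.28 (RLTR10D), 2.65 (RLTR10A), 0.95 (RLTR10C) and 0.83 (plain RLTR10) in fibroblasts and at 2.86, 2.28, 0.19 and -0.05 in embryos.

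RLTR10D gave the highest ratio of the larger subfamilies in fibroblasts, while in embryos RLTR10A did. In fibroblasts its reads went from 307 to 7012, a ratio of 22.1 (19.7 to 24.9), and 33 of 46 measured loci were raised (71.7%), near the 70.0% of all LTR loci. In embryos they went from 1276 to 6327, a ratio of 5.15 (4.85 to 5.47), with 25 of 47 raised (53.2%, beside 36% of all LTR loci) and 1 lowered. WT reads were at 0 at 22 of the 33 loci raised in fibroblasts and never above 7, while the Lsh-/- reads of these loci had a minimum of 11, a median of 44.0 and a maximum of 2746. At the 25 loci raised in embryos the WT reads reached 37 and the Lsh-/- reads ran from 10 to 1033 with a median of 79.0. The fibroblast total leaned on few loci: 1 locus held 39.2% of the Lsh-/- reads and 3 held 62.0%, and without the first the reads went from 306 to 4266.

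That locus is the RLTR10D element at chr9:12097493-12104430 (+), 6938 bases long and intergenic, with Phxr4 as the nearest coding gene at over 1 Mb. It held 1 read in WT and 2746 in Lsh-/- fibroblasts, and 0 and 201 in WT and Lsh-/- embryos. The fibroblast ratio was 2659 with a counting interval of 477 to 105066, wide because of the single WT read. The embryo ratio was 69.6 with the WT count set to 3, and its counting interval began at 56.1. Its terminal repeats were 354 bases long and 90.96% identical, its 5′ repeat had 14 CpG, and 74.5% of its 50-base windows were unique. Its 3′ end, shown because it closes the element, is at chr9:12104391-12104430 (+).
RLTR10D, 3′ end: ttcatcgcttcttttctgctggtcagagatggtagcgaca

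The second RLTR10D locus in fibroblasts lies at chr11:31445550-31449682 (+), also intergenic, 115499 bases from Bod1. It had 0 reads in WT and 840 in Lsh-/- fibroblasts, 271-fold higher with 0 set to 3 (interval from 220). Embryos held 1 and 79, a ratio of 82.0 (14.3 to 3280). In embryos the leading RLTR10D loci were others. The element at chr10:37779031-37783208 (+) held 37 reads in WT and 1033 in Lsh-/- embryos, a ratio of 29.0 (20.9 to 41.4), and 2 and 120 in fibroblasts, a ratio of 58.1 (15.7 to 485). The element at chr18:37395488-37401857 (+), 22795 bases from the protocadherin gene Pcdhb1, held 1 read in WT and 931 in Lsh-/- embryos (ratio 967, interval 173 to 38220). In fibroblasts it held 0 and 12, 3.87-fold higher with 0 set to 3 (interval from 2.69). Both were raised in both tissues, though the fibroblast call of the chr18 locus is lost with the LTR table total, and the order of the loci by Lsh-/- reads was not the same in fibroblasts as in embryos.

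Further RLTR10D loci with many reads were looked up after their values were seen. The element at chr17:5522679-5527515 (-), in an intron of the palmitoyltransferase gene Zdhhc14, went from 2 to 728 reads in fibroblasts and from 4 to 58 in embryos. The element at chr18:37010367-37016732 (+) went from 0 to 764 and from 0 to 116. The element at chr17:26428287-26435519 (-), 5838 bases from Luc7l, went from 4 to 40 in fibroblasts and from 12 to 601 in embryos. None held more than 12 reads in a WT library.

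Not every well-covered RLTR10D locus moved. The element at chr12:18905965-18909289 (+) held 83 and 118 reads in WT and Lsh-/- fibroblasts (ratio 1.38, 1.03 to 1.85) and 320 and 255 in embryos (0.827, 0.699 to 0.978). It was read in WT cells of both tissues and was neither raised nor lowered. The element at chr12:22154970-22158293 (-), in an intron of the non-coding gene RP23-138L1.1 on the same strand, held 38 reads in WT and 7 in Lsh-/- embryos and was lowered (ratio 0.191, 0.0721 to 0.434), while fibroblasts held 3 and 20 (6.46, 1.92 to 33.9), which is raised if the total of all 6 tables is used (10.3, 3.06 to 54.3). Unique windows made up 17.1% and 14.6% of these elements. The median over all RLTR10D loci that were neither was 52.3% in fibroblasts and 63.3% in embryos.

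The raised RLTR10D loci were wider than those that were neither. The median width was 6301 bases for the 33 raised in fibroblasts and 3325 for the 13 that were neither, and 4951 and 3374 in embryos for 25 and 21 loci. Of the 33 raised in fibroblasts, 29 were intergenic, 2 were in introns and 2 touched exons of annotated genes, against 7, 5 and 1 of the 13 that were neither. Over all 114 RLTR10D loci these were 99, 11 and 4, so the raised loci were near the subfamily as a whole. Of the 68 loci with under 10 reads, 63 were intergenic. Median terminal repeat identity was near the same, 90.96% and 91.45%, and the CpG density of the terminal repeat was 2.89 against 2.25 CpG per 100 bases. The raised loci also held more unique 50-base windows (medians of 4010 and 1485), and the part of width in the calls was not tested.

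**Figure D3:**
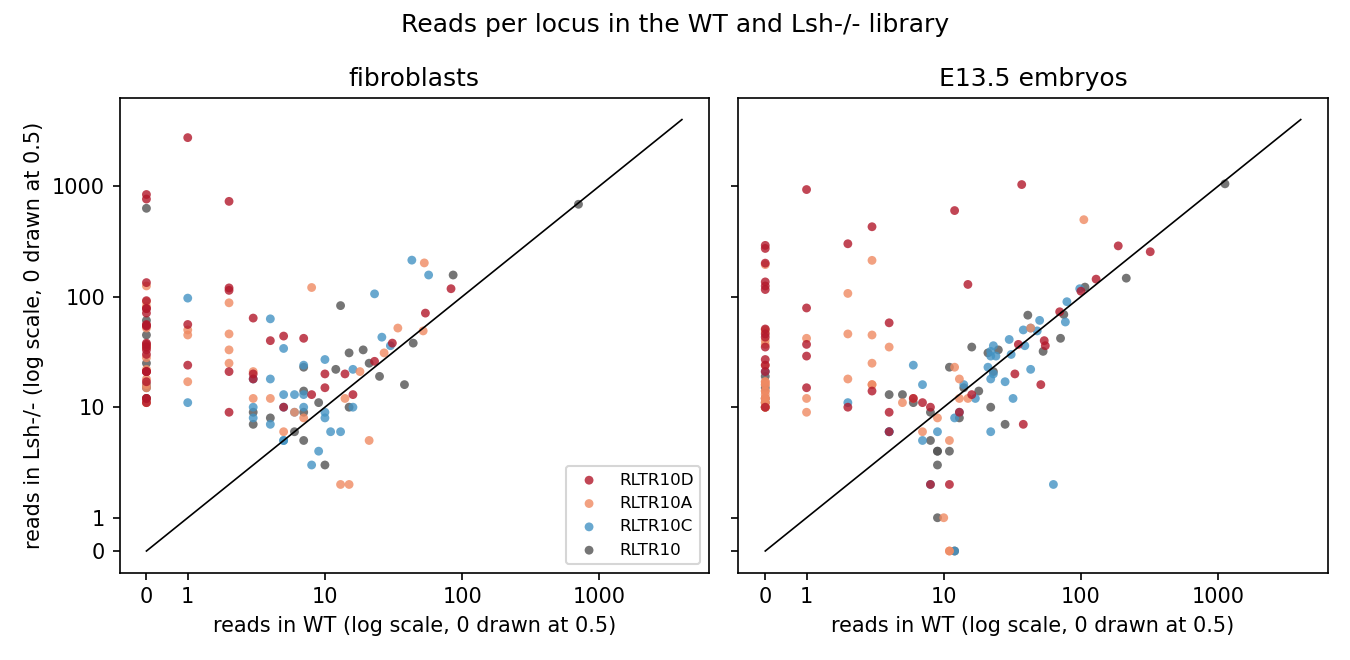
Each point is 1 locus with at least 10 reads in the pair: the x axis is reads in the WT library and the y axis reads in the Lsh-/- library, both on log scales with 0 drawn at 0.5, for fibroblasts (left) and E13.5 embryos (right); the line marks equal counts. Most RLTR10D and RLTR10A points stand far above the line at few WT reads, up to 2746 Lsh-/- reads at 1 WT read in fibroblasts and 931 at 1 in embryos, while plain RLTR10 and RLTR10C points lie mostly nearer to it.

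RLTR10A was raised about as often as RLTR10D but reached lower counts. In fibroblasts 25 of 38 loci were raised (65.8%, below the 70.0% of all LTR loci) and reads went from 322 to 1643, a ratio of 4.94 (4.38 to 5.59). In embryos 31 of 48 were raised (64.6%, beside 36%) and 2 lowered, with reads from 350 to 2024, a ratio of 6.00 (5.36 to 6.74). The raised loci had a median of 35.0 Lsh-/- reads in fibroblasts and 17.0 in embryos, and 3 and 4 of them had at least 100. WT reads were at 0 at 15 of the 25 and 22 of the 31 raised loci.

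The RLTR10A locus with the most reads lies at chrX:8906059-8909895 (-), 15683 bases from Xk. It was already read in WT cells, with 53 reads in fibroblasts and 105 in embryos, and held 202 and 497 in Lsh-/- cells, ratios of 3.69 (2.72 to 5.09) and 4.91 (3.97 to 6.13). The locus at chr1:100485946-100491454 (+), 72381 bases from Slco6d1, went from 0 to 125 reads in fibroblasts, 40.4-fold higher with 0 set to 3 (interval from 32.3). In embryos it went from 3 to 213 (73.7, 24.9 to 360). The locus at chr1:50869127-50873280 (+), 84211 bases from Tmeff2, went from 8 to 121 (14.7, 7.20 to 34.7) and from 3 to 45 (15.6, 5.0 to 78.3). These 3 loci were intergenic and were raised in both tissues, except that the fibroblast call of the chrX locus is lost with the LTR table total (1.48, 1.09 to 2.04).

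Among RLTR10A loci that were neither, the one with the most fibroblast reads was at chr10:82912716-82917597 (-), with 52 and 49 reads in WT and Lsh-/- fibroblasts and 15 and 12 in embryos. Its terminal repeats were 69.04% identical, the lowest of the subfamily, and it overlaps another RLTR10A annotation. The one with the most embryo reads, at chr7:34880652-34884611 (-), held 43 and 52 reads there and 14 and 12 in fibroblasts. A locus in an intron of Ccdc41, at chr10:94155911-94157907 (-), was lowered in embryos, with 11 reads in WT and 0 in Lsh-/- tissue. With 0 set to 3 it was 3.53-fold lower, and the interval of the ratio reached up to 0.414. Fibroblasts held 6 and 0 reads there.

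RLTR10C was raised at few loci. In fibroblasts 6 of 33 were raised (18.2%), or 11 with the total of all 6 tables and 2 with the LTR table total, and the summed reads went from 480 to 1242, a ratio of 2.51 (2.25 to 2.79). In embryos 2 of 37 were raised and 2 lowered (5.41% each), with 1155 and 1175 reads, a ratio of 1.06 (0.973 to 1.15). In fibroblasts 24 of the 33 loci had a ratio above 1, and the median pair held 19 reads.

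The RLTR10C locus with the most reads is at chr3:96117386-96124499 (-), 19207 bases from Fcgr1. It was raised in fibroblasts, from 43 to 214 reads (4.82, 3.46 to 6.85, or 1.93, 1.39 to 2.75 with the LTR table total, which ends the call), and not in embryos, with 98 and 118 (1.25, 0.948 to 1.65). A neighbour on the same chromosome, chr3:96312130-96319233 (-), 9875 bases from Hfe2, went opposite ways: 23 to 106 reads in fibroblasts (4.46, 2.82 to 7.34) and 63 to 2 in embryos (0.0330, 0.00391 to 0.124). Its terminal repeats were identical and 4.41% of its 50-base windows were unique, 313 windows in all, so all its reads come from a short stretch, and the difference between the tissues was not tested. With the LTR table total its fibroblast ratio is 1.79 (1.13 to 2.94) and the raised call is lost. Of the RLTR10C loci raised in embryos, chr11:120182295-120189815 (-) (0 to 21 reads, and 4 to 63 in fibroblasts) overlaps an IAPLTR1a_Mm annotation, and reads there cannot be told apart from those of the IAP. The other, chr13:3382710-3385489 (+), overlaps another RLTR10C annotation and had 0 and 11 reads in embryos and 0 and 5 in fibroblasts. The locus at chr13:24860275-24863990 (-), which overlaps an RLTRETN_Mm element, had 57 and 157 reads in fibroblasts (2.67, 1.96 to 3.68) and missed the call, which it passes with the total of all 6 tables (4.27, 3.13 to 5.89) or the median of ratios (2.75, 2.02 to 3.80).

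Plain RLTR10 was the largest group by loci and among the least moved. In fibroblasts 7 of 27 were raised (25.9%, beside 70.0% of all LTR loci), with 1178 and 2337 reads and a ratio of 1.92 (1.79 to 2.06). In embryos 4 of 32 were raised and 1 lowered, with 2228 and 2056 reads and a ratio of 0.958 (0.902 to 1.02). The sums lean on 1 locus in each tissue: chr4:34300502-34302664 (+), which overlaps an exon of the gene Gm12751 on the same strand, held 705 and 685 reads in fibroblasts and 1122 and 1049 in embryos, ratios of 0.941 (0.846 to 1.05) and 0.971 (0.892 to 1.06). With the LTR table total the first was lowered (0.377, 0.339 to 0.419). Without the locus with the most reads the fibroblast ratio was 3.38 (3.05 to 3.75) and the embryo ratio 0.945 (0.867 to 1.03).

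The plain RLTR10 locus with the largest change was fibroblast-high. At chr3:4309228-4312063 (+), 649453 bases from Hnf4g, reads went from 0 to 630 in fibroblasts, while embryos held 0 and 3. The fibroblast ratio was 203 with 0 set to 3 (interval from 165). The locus at chr5:105238673-105241598 (+), 768 bases from the zinc finger gene Zfp951 and shown above, went from 13 to 83 reads in fibroblasts (6.18, 3.43 to 12.1, or 2.48, 1.37 to 4.85 and no call with the LTR table total) and stayed at 14 and 15 in embryos (1.11, 0.501 to 2.49). The loci at chr9:6583110-6586267 (+) and in an intron of Znrf3 at chr11:5261222-5265373 (+) were raised in both, with 0 and 61 then 0 and 19 reads at the first, and 0 and 15 in each tissue at the second, whose fibroblast call is lost with the LTR table total. At chr13:75999320-76002330 (+), 4655 bases from Rhobtb3, embryos held 12 and 0 reads, 3.85-fold lower with 0 set to 3 (ratio interval up to 0.374). The downstream interval of the same element was lowered too, from 125 to 28.

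The smaller subfamilies gave few loci. RLTR10E was raised at 4 of 9 in fibroblasts and 0 of 8 in embryos, where 92.2% of its Lsh-/- reads lay in 3 loci that overlap gene exons. Its clearest locus, picked after its values were seen, was chr3:49404675-49411684 (-), with 0 and 164 reads in fibroblasts and 7 and 2 in embryos. RLTR10B2 was raised at 1 of 6 loci in fibroblasts and 1 of 4 in embryos, the same locus at chr17:19158580-19165570 (+), with 0 and 18, then 1 and 61 reads. RLTR10B had 0 of 2 and 1 of 5.

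Dividing the reads by the unique length gives levels that can be set beside each other across names, though they hang on the window length. In unscaled reads per kb of unique 50-base windows, RLTR10D went from 0.854 to 19.5 in fibroblasts and from 3.55 to 17.6 in embryos. RLTR10A went from 1.11 to 5.65 and from 1.20 to 6.96, and RLTR10C from 1.76 to 4.55 and from 4.24 to 4.31. Plain RLTR10 had the highest WT level, 7.90 in fibroblasts and 14.9 in embryos, with 15.7 and 13.8 in Lsh-/- cells. That level leans on the exon-overlapping locus on chromosome 4, with 705 of the 1178 WT fibroblast reads and 1122 of the 2228 WT embryo reads. RLTR10E had WT levels of 4.02 and 11.1. IAP went from 1.52 to 74.2 in fibroblasts and from 4.17 to 20.1 in embryos. On this scale Lsh-/- RLTR10D lay below IAP by a wide margin in fibroblasts. In embryos the order hung on the window length. There Lsh-/- RLTR10D and IAP were at 22.8 and 29.9 with windows of 36 bases, and at 14.2 and 13.2 with windows of 75 bases.

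**Figure D4:**
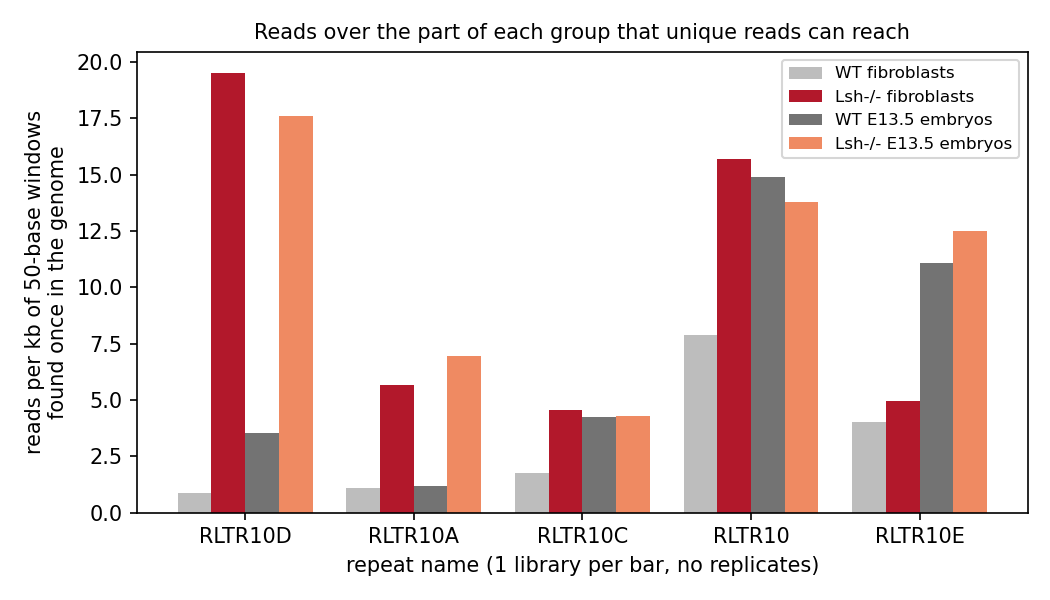
Bars give unscaled reads per kb of 50-base windows found once in mm9, summed over all listed loci of RLTR10D, RLTR10A, RLTR10C, plain RLTR10 and RLTR10E, for the 4 libraries (1 library per bar, no error). Of these names RLTR10D has the lowest WT fibroblast bar (0.854) and the highest Lsh-/- bars (19.5 and 17.6), while the plain RLTR10 bars include the exon-overlapping locus on chromosome 4.

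The tissues were compared over the 118 loci with at least 10 reads in both pairs. Of these, 50 were raised in fibroblasts, 42 in embryos and 41 in both, which is 82.0% of the fibroblast set and 97.6% of the embryo set. Over all LTR loci the overlap was 69.2% and 95.1%, over IAP loci 74.8% and 97.3%, and over other ERVK loci 47.3% and 81.2%. The libraries of the tissues are separate, so these counts share no control. RLTR10D made up 21 of the 41 and RLTR10A 16. Of the RLTR10D loci raised in fibroblasts 87.5% were raised in embryos too, of the RLTR10A loci 94.1%, and of the 4 RLTR10C loci 25%. A further 26 loci raised in fibroblasts and 22 raised in embryos had under 10 reads in the other tissue and could not be compared. That a locus was raised in both tissues did not fix its level: the chr9 RLTR10D element had 2746 reads in Lsh-/- fibroblasts and 201 in embryos, and the chr18 element beside Pcdhb1 had 12 and 931.

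**Figure D5:**
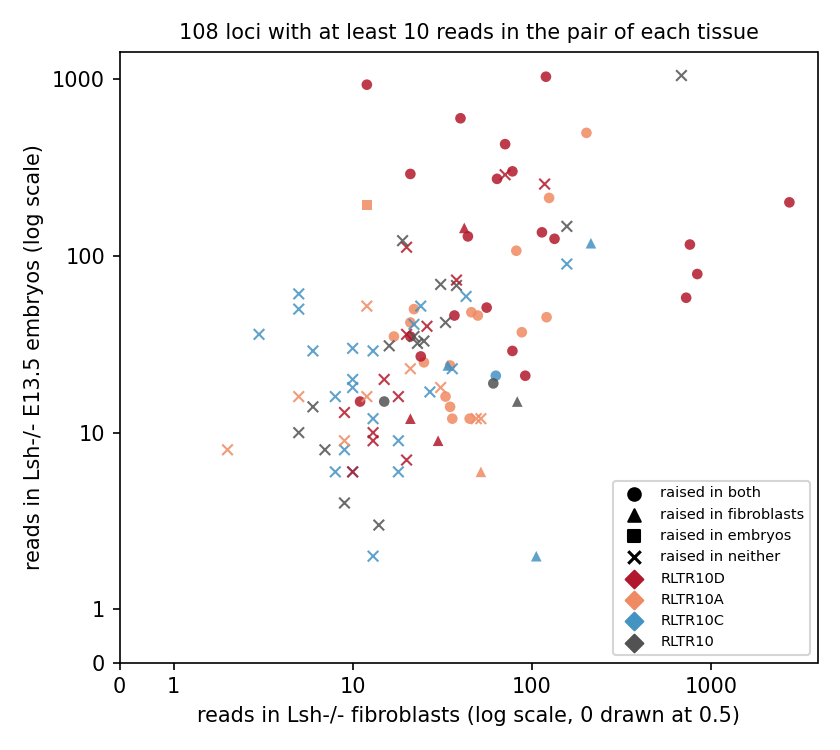
Each point is 1 of 108 RLTR10D, RLTR10A, RLTR10C and plain RLTR10 loci with at least 10 reads in the pair of each tissue: x is reads in Lsh-/- fibroblasts, y reads in Lsh-/- embryos (log scales), the colour is the repeat name and the symbol the call. Circles, raised in both tissues, are 40 of the points and mostly RLTR10D and RLTR10A, and they spread widely around the diagonal.

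Reads were also counted in intervals 10 kb from the elements. They bear only on transcription that reached that far, and the paper reports that such intervals can overlap a neighbouring repeat. By the study's account an interval is as wide as the element, with one at 10 kb upstream and one downstream. Upstream in fibroblasts 10 of 91 measured RLTR10 intervals were raised and 2 lowered, beside 16.2% raised over all LTR loci, and downstream 12 of 96 were raised and 4 lowered, beside 16%. In embryos 8 of 125 upstream intervals were raised and 8 lowered, beside 5.34% raised over all, and 5 of 134 downstream were raised and 4 lowered, beside 4.70%. The share of lowered intervals over all LTR loci was not computed, so the lowered counts have nothing to be set beside. Summed reads moved little, from 12858 to 13962 upstream and from 19724 to 21636 downstream in fibroblasts, and from 35603 to 36197 and from 40872 to 41497 in embryos.

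Few raised elements had a flank that could be measured. Of the 76 elements raised in fibroblasts, 10 had a measured upstream interval, 6 of them raised, and 10 a measured downstream interval, 5 of them raised. Of the 64 raised in embryos these were 3 of 6 upstream and 1 of 5 downstream. No share over the flanks of all raised LTR elements was computed to set beside these counts. A raised flank can also be another member. By the study's account of its place, the downstream interval of the plain RLTR10 at chr9:6583110-6586267 (+) falls in a raised RLTR10D element. That element lies at chr9:6595072-6601503 (-), and the interval went from 0 to 12 reads in fibroblasts. The element at chr18:37010367-37016732, raised in both tissues, had a downstream interval with 0 and 27 reads in fibroblasts and 0 and 19 in embryos. Upstream of the RLTR10A element at chr6:104654108-104658033 (-) reads went from 0 to 25 in fibroblasts and from 0 to 18 in embryos. The largest count in a raised flank was at an element that itself had under 10 reads, the plain RLTR10 at chr6:139765736-139768901 (+), whose downstream interval went from 0 to 596 reads in fibroblasts.

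Over the whole family 673 loci were intergenic, 147 lay in introns and 57 touched an exon, and 1 lay on a sequence outside the genome file used. Of the 76 loci raised in fibroblasts, 65 were intergenic, 6 intronic and 5 exonic, against 41, 33 and 11 of the 85 that were neither. In embryos these were 53, 7 and 4 of 64 raised, and 57, 36 and 18 of 111 that were neither. A read of a gene that covers such a locus is counted there, and its part in the calls was not tested.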

How the data were processed

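The members, gene lists and calls were chosen with earlier results of these data known. The libraries were stranded (dUTP) and read from both ends. Alignment by the authors used TopHat 1.4.0 against mm9 and allowed no mismatch, after which reads with 1 place in the genome were kept and joined to RepeatMasker, and edgeR was run. They deposited raw counts per locus in 6 tables per library (LTR and LINE loci, and intervals up- and downstream of each), listing only loci with a read, so that a locus listed elsewhere was set to 0 here. Read length and whether mates were counted once are not given in the sources used here. Starts were raised by 1.

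Library sizes were TMM values (edgeR 4.0.16, R 4.3.3) over intervals up- and downstream of LINE-1 elements, in each tissue separately (factors 0.754 and 1.33 in fibroblasts, 1.00 and 0.996 in embryos). Ratios carry exact Clopper-Pearson 95% intervals from the split of the pair's reads (scipy 1.17.1). Against 0 reads a ratio was computed with 0 set to a floor of 3 counts per library, and the finite end of the counting interval is given beside it. Medians of log2 ratios use values with 0 set to that floor, while medians of log2 fold changes, given for the alternatives, use a prior count of 0.125. Loci were named by rule: for each tissue and each name with at least 10 measured loci, the 2 raised, 1 neither and 1 lowered with the most reads in the pair, and the 3 raised in both tissues with the most reads. Loci outside it are named as seen afterwards. Calls and sizes were tested on simulated data. The simulated counts held counting error only, so they bear neither on the spread between cultures or animals nor on the choice among library sizes.

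Sequence came from the NCBIM37 (mm9) genome and genes from GENCODE vM1. Terminal repeats were matches of at least 200 bases between the first and last 1000 bases of a locus, within 20 bases of its ends (blastn 2.17.0). Unique windows are 50-base stretches found once in mm9 on either strand. Alternatives were tried for sizes, minimum counts, calls, priors, overlapping repeats, sex chromosomes, locus width and window length.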

Additional observations from a re-analysis of the deposited data

Results flagged for a closer look

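One locus gave opposite calls in the tissues. The RLTR10C element at chr3:96312130-96319233 (-) had a Lsh-/- over WT ratio of 4.46 in fibroblasts (23 and 106 reads) and 0.0330 in E13.5 embryos (63 and 2 reads). With the LTR table total as library size the fibroblast ratio is 1.79 (1.13 to 2.94), so the raised call and with it the opposite calls are lost. With 1 library per group the difference between the tissues was not tested. The reads come from 313 unique 50-base windows of a 7104-base element.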

How the results depend on the processing

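No paired analysis was possible because each group has 1 library, and no replicate was left out for the same reason. Depth limits these values beside the lack of replicates: 717 members in fibroblasts and 697 in embryos had under 10 reads in a pair, and 0 reads allows up to 3. Below, shares are percent raised of measured loci, given for RLTR10D, RLTR10A, RLTR10C and plain RLTR10 in that order where not named. The reported counts are 76 raised and 0 lowered in fibroblasts and 64 and 6 in embryos.

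Scaling by the LTR table total, which the IAP reads dominate, gave 46 raised and 9 lowered in fibroblasts, shares of 52.2, 39.5 and 6.06 for the first 3 names, 4.28 for the flanking intervals, and 93.5 of the fibroblast raised loci also raised in embryos. The median log2 fold change then turned negative for RLTR10C (-0.36) and plain RLTR10 (-0.49) in fibroblasts and for RLTR10C in embryos (-0.05). Scaling by the total of all tables gave 87 raised in fibroblasts, with 11 RLTR10C loci in place of 6 (33.3) and plain RLTR10 at 33.3. Fibroblast median log2 fold changes were higher, such as 4.81 in place of 4.16 for RLTR10A and 1.60 in place of 0.94 for RLTR10C. Scaling by median of ratios changed the family's counts of raised and lowered loci by less than 1.5 times.

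With no minimum the shares were 35.9, 25.3, 3.92 and 3.15 in fibroblasts. In embryos they were 26.8 and 31.2 for RLTR10D and RLTR10A and 1.85 for plain RLTR10. Flanking intervals were at 3.90 and 2.52, and the overlap of the tissues at 59.2. The RLTR10C embryo median log2 fold change was -0.10. A minimum of 50 left 33 raised in fibroblasts and 21 raised and 1 lowered in embryos, with 84.2 (RLTR10D) and 57.1 (RLTR10C, 7 loci) in fibroblasts, 83.3 (RLTR10A, 6 loci), 0 (RLTR10C) and 0 (plain RLTR10) in embryos, and 6.60 and 2.27 for flanking intervals.

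An interval beyond 4-fold gave 50 raised in fibroblasts and 41 raised and 1 lowered in embryos, with 52.2, 44.7 and 6.06 in fibroblasts, 31.2 (RLTR10A) and 3.12 (plain RLTR10) in embryos, and 4.81 and 1.93 for flanking intervals. A log2 fold change beyond 5 with the smaller prior count gave 47.4 (RLTR10A), 6.06 (RLTR10C) and 7.49 (flanking intervals) in fibroblasts. With a prior count of 1 it gave 30 raised in fibroblasts and 22 raised and 0 lowered in embryos, shares of 39.1, 18.4, 3.03 and 11.1 in fibroblasts and 31.9, 14.6, 0 and 0 in embryos, 1.07 and 0.386 for flanking intervals, and 52.6 for the overlap of the tissues.

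Among loci with a WT read, an alternative chosen after seeing the data, the shares were 45.8, 43.5, 15.6 and 4.76 in fibroblasts and 33.3, 34.6, 0 and 0 in embryos. Without loci that overlap another listed repeat the RLTR10C share in embryos was 0. Among loci of at least 4 kb the shares were 90.3 (RLTR10D) and 66.7 (plain RLTR10, 3 loci) in fibroblasts and 69.2 (RLTR10D), 78.6 (RLTR10A) and 50 (plain RLTR10, 2 loci) in embryos. The median share of unique windows was 54.6, 44.8, 12.2 and 4.83 with windows of 36 bases and 88.9, 81.6, 29.8 and 17.9 with windows of 75 bases. The causes of these shifts were not tested beyond how each alternative is built. Under each of these call, size, minimum and locus alternatives the shares of RLTR10D and RLTR10A lay above those of RLTR10C and plain RLTR10 in both tissues.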
